A study of Mus musculus with 8 samples.

Results

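The genes described here are 42 genes of DNA replication and mitosis, from the G1 cyclins and their kinases to the proteins that build and dismantle the mitotic spindle. They are the entries of the deposited table whose symbol equals 1 of 42 listed names, and all 42 names were found among its 10663 genes. Symbols are written in capitals, as in that table. The cells were 3T3-L1 adipocytes, the fat cells made in culture from a mouse fibroblast line. Bulk RNA was sequenced in 4 libraries of cells overexpressing miR-690-5p, called miR-690oe, and in 4 control libraries. All 8 libraries share 1 cell line and, per the labels, 1 medium with serum. The same miR-690 mimic, a synthetic copy of the microRNA, is recorded for every library, controls among them, and no source used here states what was given to control cells. It is also not stated that replicates are separate cultures, and a p-value here reflects the spread among these libraries alone, which may be technical.

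A cell enters the cycle when D-type cyclins and CDK4 or CDK6 phosphorylate the retinoblastoma protein RB1, which releases the E2F transcription factors that switch on replication genes. The MCM2 to MCM7 helicase then opens DNA at origins, a DNA polymerase with its sliding clamp copies it, and enzymes such as ribonucleotide reductase supply the nucleotides. CDK1 with its B-type cyclins drives mitosis, and the anaphase-promoting complex ends it. Preadipocytes of this line divide again after the adipogenic stimulus and then leave the cycle as they fill with fat, so the messages of these genes in an adipocyte culture can come from cells at either stage.

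The libraries held 31211349 to 38235522 reads in miR-690oe and 29773446 to 33816227 reads in controls over the listed genes. Values are CPM, read counts scaled to a library sum of 1000000, so a gene's value is its share of the library. The 42 genes had between 517 reads (STMN1) and 15232 reads (CCND2) per library. Adipocyte markers were abundant, with ADIPOQ at 698 CPM in miR-690oe and 779 CPM in control libraries and FABP4 at 5884 and 6573 CPM, and LEP was not among the listed genes. The preadipocyte marker DLK1 stood at 1277 CPM in miR-690oe and 1382 CPM in controls, so both kinds of marker were present in both groups. Only 3 of 8 macrophage markers and 1 of 8 endothelial and blood markers were listed, with summed levels of at most 27.9 CPM in any library. In bulk RNA, fewer cells of a type and less RNA per cell cannot be told apart.

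miR-690 was searched first, since a message with a match to its seed is a candidate for direct pairing. The mature mouse sequence in RefSeq (GRCm38.p6, chr16:28599940-28599961, minus strand) is shown with its seed, bases 2 to 8, in capitals, followed by the 5 matches to that seed, TAGCCTT, in the annotated 3′ UTRs of the 42 genes.
mmu-miR-690: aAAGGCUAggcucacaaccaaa
CDK2, chr10:128698354-128698360, minus strand: agccaggttccTAGCCTTccttttggaag
TYMS, chr5:30058845-30058851, minus strand: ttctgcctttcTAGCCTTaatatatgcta
AURKA, chr2:172356508-172356514, minus strand: cacctgtgtcgTAGCCTTcaagtgccaga
TPX2, first match, chr2:152894968-152894974, plus strand: ggaatatcacaTAGCCTTggttagatttc
TPX2, second match, chr2:152895205-152895211, plus strand: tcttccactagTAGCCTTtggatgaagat

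Capitals in the last 5 lines mark the seed match, and coordinates are those of the match in GRCm38, the same build as mm10. Matches lay in 4 of the 42 genes (9.52%), against 1238 of 10364 genes tested (11.9%) that had an annotated 3′ UTR. The 4 genes did not move one way. CDK2 was higher, AURKA was lower, and TYMS and TPX2 were not called, with log2 fold changes of 0.17, -0.27, -0.11 and 0.04. Over all genes tested, the median log2 fold change was 0.09 with a match and 0.0087 without one. Genes with a match also had longer 3′ UTRs, with a median of 2564 nt against 1143 nt over all genes tested, and fold change rose with transcript length in these data.

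Of the 42 genes, 10 were higher and 10 lower in miR-690oe, and 22 were not called. A call means a Benjamini-Hochberg adjusted p under 0.05 in limma, over all 10658 genes tested on log2(CPM + 0.5). Across all genes tested, 26.0% were called higher and 17.4% lower, while 23.8% of the 42 genes were called in each direction. In this fit both shares lie within a few genes of those of all genes tested. The 10 higher genes were CENPF, MKI67, CDK6, RB1, CCND2, KIF11, TOP2A, POLA1, MCM4 and CDK2. The 10 lower genes were TK1, AURKA, CDK4, CDC20, CCND3, BIRC5, CCNE1, MCM5, CDK1 and MCM7. Changes were small, between 1.49-fold (CENPF) and 0.826-fold (TK1) of the control level, and the median log2 fold change was -0.05, against 0.02 over all genes tested. Higher genes made up 59.9% of all calls in these values and 46.4% after quantile normalization. After that normalization 9 of the 42 genes were higher (21.4%) and 17 lower (40.5%), where 20.7% of all genes tested were higher and 23.9% lower. With median-of-ratios scaling, 10 were higher (23.8%) and 16 lower (38.1%), where 23.2% of all genes tested were higher and 20.9% lower. In both of these fits MCM3, MCM6, GINS2, RFC4, TYMS and STMN1 joined the lower genes, so the share called lower among the 42 genes depends on the scaling. Quantile normalization also added CCNB2 (limma adjusted p = 0.0422) and ended the call of CDK2 (0.12, limma adjusted p = 0.0705).

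**Figure D1:**
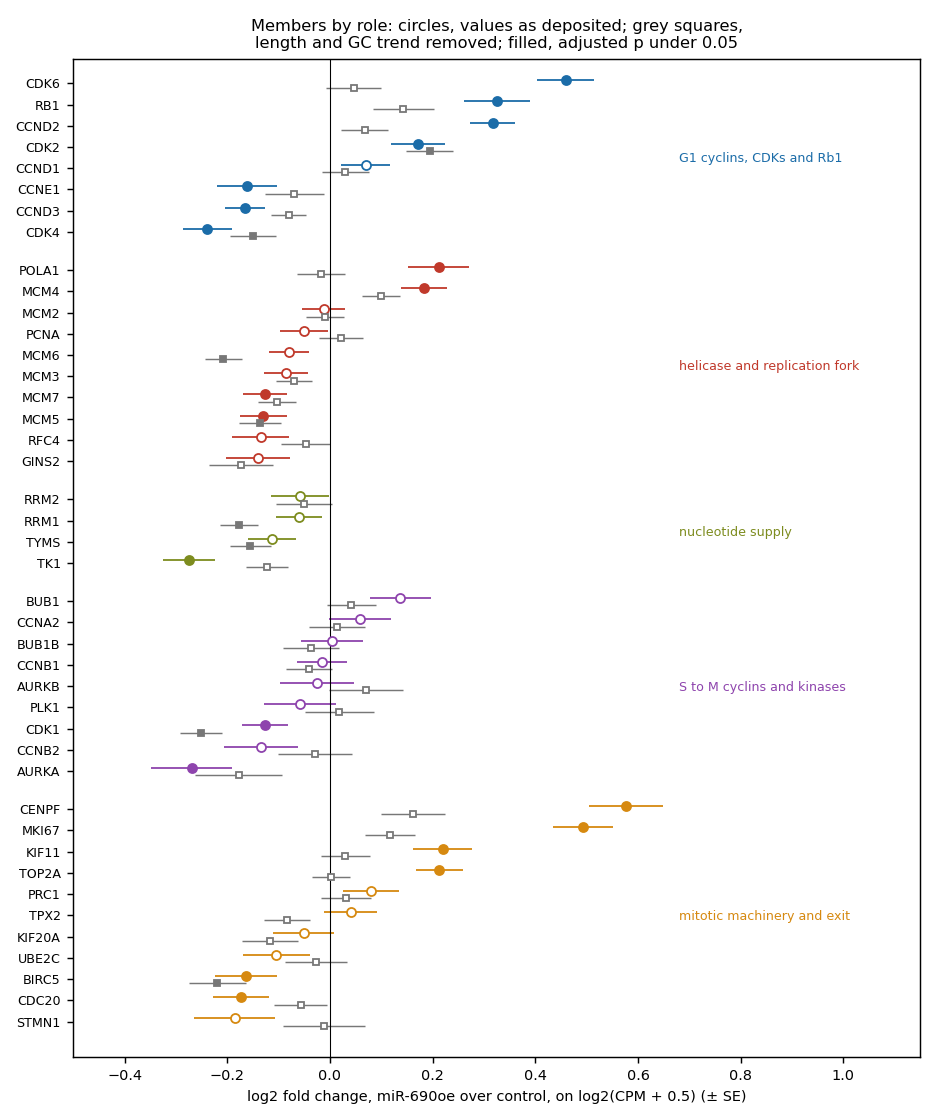
Log2 fold change of each of the 42 genes, miR-690oe over control (x axis, log2(CPM + 0.5) scale, bars ± SE), by role and, within a role, from the highest to the lowest. Circles use the values as deposited and grey squares the values with the length and GC trend removed, with filled symbols for an adjusted p under 0.05. The circles run from -0.27 (TK1) to 0.58 (CENPF), and 20 are filled, while 8 squares are filled.

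The ranges of both groups lay apart for 9 of the 42 genes that were higher and 10 that were lower in miR-690oe. Over all genes tested, such separation was seen for 22.4% in the higher and 15.9% in the lower direction. Among the lower ones were MCM3, MCM6 and STMN1, which did not pass the adjusted threshold.

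The G1 group holds the cyclins and kinases that decide on entry into the cycle, and 4 of its 8 genes were higher and 3 lower. These are 50% and 37.5% of the group, beside 26.0% and 17.4% of all genes tested. CDK6, a kinase partner of the D-type cyclins, had 83.0, 85.1, 75.1 and 73.4 CPM in miR-690oe replicates 1 to 4, against 55.1, 60.7, 58.3 and 55.4 CPM in control replicates 1 to 4. CCND2, a D-type cyclin, had 398, 449.6, 418 and 417 CPM in the miR-690oe libraries, against 345, 332, 330.4 and 341 CPM in the controls. RB1, the retinoblastoma protein that these kinases phosphorylate, had 31.5, 36.1, 31.5 and 29.4 CPM in the miR-690oe libraries, against 24.7, 27.1, 24.5 and 25.7 CPM in the controls. Every miR-690oe library lay above every control library for all 3 genes. Their log2 fold changes were 0.46 ± 0.0559 for CDK6, 0.32 ± 0.0440 for CCND2 and 0.33 ± 0.0645 for RB1 (SE, limma adjusted p = 1.70e-05, 5.19e-05 and 8.66e-04).

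CDK4, the other kinase partner of the D-type cyclins, went the other way from CDK6. CDK4 (chromosome 10, 127063534 to 127067920, plus strand) had 353, 324, 331 and 339 CPM in the miR-690oe libraries, against 365, 406, 415 and 405 CPM in the controls. CCND3, another D-type cyclin, had 195, 186, 186 and 195 CPM in the miR-690oe libraries, against 212, 216, 213 and 214 CPM in the controls. The groups did not overlap for either gene, and the 4 control values of CCND3 lay within 4 CPM of each other. The log2 fold changes were -0.24 ± 0.0473 for CDK4 and -0.17 ± 0.0394 for CCND3 (SE, limma adjusted p = 8.71e-04 and 0.00314). CCND1, the remaining D-type cyclin, had 328 ± 17.2 CPM in miR-690oe and 312 ± 13.9 CPM in control libraries (SD, n = 4 each) and was not called, at 0.07 (limma adjusted p = 0.253). The D-type cyclins and their kinases thus included genes in both directions and 1 that was not called. CDK4 shares 641 nt with TSPAN31 on the opposite strand, and no source used here states whether reads were counted by strand.

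CDK2, the kinase that works with cyclin E at the start of S phase, and CCNE1, a cyclin E, also split. CDK2 (chromosome 10, 128697939 to 128705031, minus strand) had 52.8, 56.4, 53.5 and 59.6 CPM in the miR-690oe libraries, against 49.6, 50.4, 50.5 and 46.4 CPM in the controls. CCNE1 had 50.7, 55.1, 49.2 and 47.7 CPM in the miR-690oe libraries, against 51.8, 57.0, 61.2 and 56.8 CPM in the controls. The miR-690oe values of CDK2 all lay above the controls, while those of CCNE1 overlapped them. The log2 fold changes were 0.17 ± 0.0525 for CDK2 and -0.16 ± 0.0586 for CCNE1 (SE, limma adjusted p = 0.0143 and 0.0349). Without control replicate 4 the CDK2 call did not hold (limma adjusted p = 0.059), and the CCNE1 call without control replicates 2, 3 or 4 or miR-690oe replicates 3 or 4, with limma adjusted p of 0.0718 to 0.121.

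**Figure D2:**
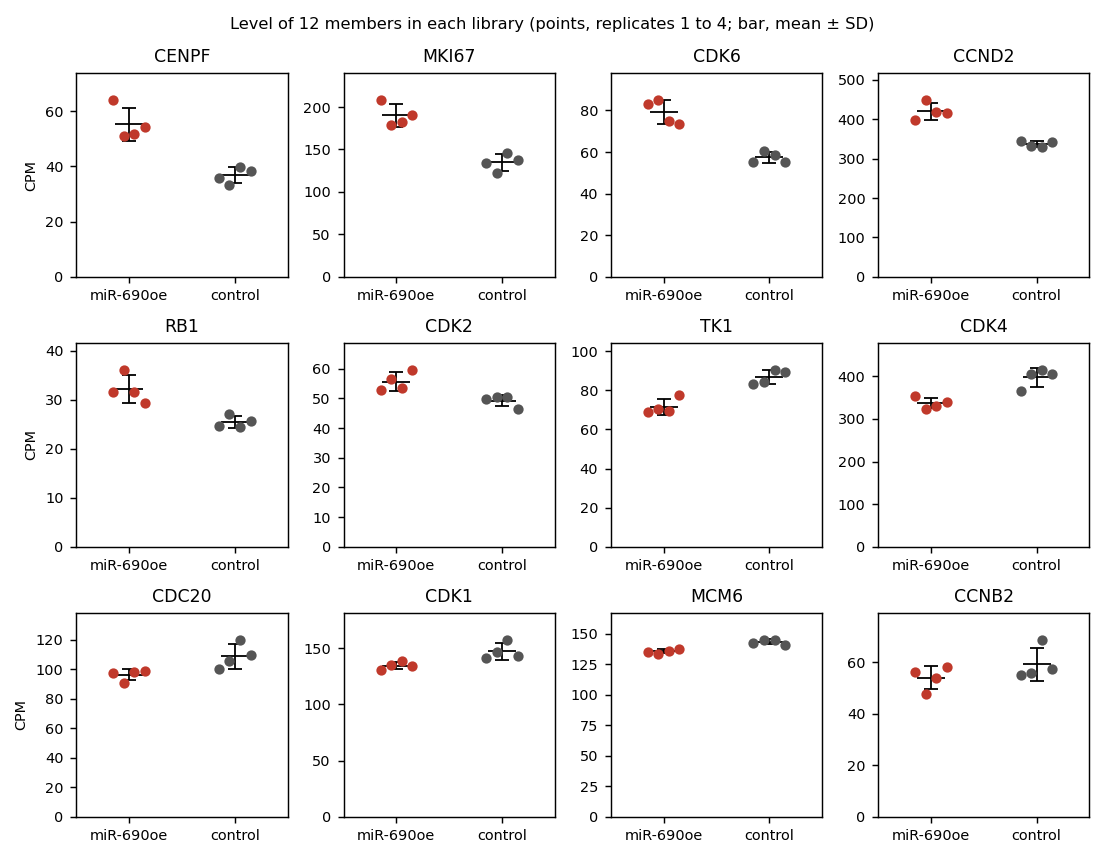
Level in CPM (y axis, from 0) of 12 of the 42 genes in each library, with miR-690oe left and control right; points run from replicate 1 to 4, and bars show the mean ± SD. CENPF, MKI67, CDK6, CCND2, RB1 and CDK2 lie higher in miR-690oe without overlap, TK1, CDK4, CDC20, CDK1 and MCM6 lie lower without overlap, and CCNB2 overlaps.

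Of the 10 genes of the helicase and fork, 2 were higher, 2 lower and 6 not called in the values as deposited. That is 20% in each direction, beside 26.0% higher and 17.4% lower of all genes tested. With median-of-ratios scaling and with quantile normalization, 2 were higher and 6 lower, with MCM3, MCM6, GINS2 and RFC4 added (limma adjusted p of 0.0289 to 0.0464 with the first and 0.0135 to 0.0252 with the second). Of all genes tested, 20.9% were lower with that scaling and 23.9% with quantile normalization. The summed level of the group was 811 to 835 CPM in miR-690oe and 835 to 861 CPM in control libraries, which overlap. Subunits of the MCM2 to MCM7 helicase, which work as 1 ring of 6 proteins, did not change together. MCM4 had 108, 108, 113 and 107 CPM in the miR-690oe libraries, against 91.5, 97.5, 99.9 and 94.8 CPM in the controls. MCM5 had 82.0, 80.6, 85.1 and 85.2 CPM in the miR-690oe libraries, against 87.9, 88.2, 95.9 and 92.6 CPM in the controls, and MCM7 had 120.3, 122, 126 and 131 CPM in the miR-690oe libraries, against 132, 138, 140.4 and 134 CPM in the controls. For all 3 the groups did not overlap, with MCM4 above and MCM5 and MCM7 below the controls. The log2 fold changes were 0.18 ± 0.0444, -0.13 ± 0.0457 and -0.13 ± 0.0435 for MCM4, MCM5 and MCM7 (SE, limma adjusted p = 0.00366, 0.0302 and 0.0269).

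MCM6 (chromosome 1, 128331590 to 128359664, minus strand) had 135, 134, 136 and 138 CPM in the miR-690oe libraries, against 143, 145, 145 and 141 CPM in the controls. MCM3 had 83.6, 79.8, 80.5 and 83.0 CPM in the miR-690oe libraries, against 84.7, 86.7, 88.0 and 87.6 CPM in the controls. Both lay below the controls in every library, at 0.946 and 0.942 of the control level, and neither was called (limma adjusted p = 0.109 and 0.112). MCM2 overlapped between the groups at -0.01 ± 0.0419 (SE, limma adjusted p = 0.841). MCM5 missed the threshold when control replicate 3 or 4 or miR-690oe replicate 2 was left out (limma adjusted p of 0.0783 to 0.108). MCM7 missed it without any 1 of control replicates 2, 3 and 4 and miR-690oe replicates 1 and 2 (limma adjusted p of 0.0508 to 0.0832). MCM7 holds 3 microRNA genes in its introns and shares 421 nt with AP4M1 on the opposite strand.

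At the fork itself, POLA1, the catalytic subunit of the polymerase that starts each new strand, had 47.1, 45.0, 44.2 and 39.4 CPM in the miR-690oe libraries, against 35.1, 38.1, 39.7 and 38.4 CPM in the controls. It differed by 0.21 ± 0.0602 on the log2 scale (SE, limma adjusted p = 0.00972), with the lowest miR-690oe value below the highest control value. PCNA, the sliding clamp, had 77.0 ± 1.52 CPM in miR-690oe and 79.8 ± 3.97 CPM in control libraries (SD, n = 4 each) and was not called (-0.05, limma adjusted p = 0.398). RFC4, a subunit of the loader that places the clamp, and GINS2, part of the active helicase, were not called at -0.13 and -0.14 (limma adjusted p = 0.0573 and 0.0821). RFC4 was called lower without miR-690oe replicate 2 (limma adjusted p = 0.0223) and GINS2 without miR-690oe replicate 3 or 4 (limma adjusted p = 0.0484 and 0.0445). In the authors' deposited table, RFC4, GINS2, TYMS and STMN1 were listed as lower at a false discovery rate under 0.05. The other 38 genes had the same call as in limma, which gave 10 higher and 14 lower in all. At that same false discovery rate, 2634 of all 10663 listed genes were higher and 2201 lower.

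Of the 4 genes of nucleotide supply, TK1 was lower (25%) and 3 were not called, where 17.4% of all genes tested were lower. TK1, the thymidine kinase of S phase (chromosome 11, 117815526 to 117826092, minus strand), had 69.0, 70.3, 69.3 and 77.7 CPM in miR-690oe replicates 1 to 4, against 83.1, 84.0, 90.5 and 89.2 CPM in control replicates 1 to 4. Every miR-690oe library lay below every control library, and replicate 4 was the highest of the miR-690oe libraries. The log2 fold change of TK1, -0.27 ± 0.0509 (SE, limma adjusted p = 5.18e-04), was the lowest among the 42 genes. RRM1 and RRM2, the large and small subunits of ribonucleotide reductase, stood at -0.06 and -0.06 on the log2 scale (limma adjusted p = 0.299 and 0.428). TYMS, which makes thymidylate, had -0.11 (limma adjusted p = 0.0594) and was called lower without miR-690oe replicate 3 (limma adjusted p = 0.0338). Summed over the 4 genes, the level was 449 to 476 CPM in miR-690oe and 484 to 529 CPM in control libraries, without overlap.

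Among 9 cyclins and kinases that act from S phase to mitosis, none was called higher and 2 were lower. Of all genes tested, 26.0% were higher and 17.4% lower, and the 22.2% lower in this group is near that share. CDK1, the kinase that drives mitosis (chromosome 10, 69335146 to 69352938, minus strand), had 130.4, 135, 138 and 134 CPM in the miR-690oe libraries, against 141, 147, 158 and 143 CPM in the controls. AURKA, a kinase of the spindle poles, had 62.3, 50.5, 52.6 and 50.9 CPM in the miR-690oe libraries, against 55.6, 66.3, 74.8 and 65.0 CPM in the controls. The CDK1 values did not overlap, while miR-690oe replicate 1 of AURKA lay above control replicate 1. The log2 fold changes were -0.13 ± 0.0452 for CDK1 and -0.27 ± 0.0796 for AURKA (SE, limma adjusted p = 0.0314 and 0.0120). CDK1 missed the threshold when control replicate 2 or 3 or miR-690oe replicate 1 was left out (limma adjusted p of 0.0595 to 0.126), while AURKA was called in each of the 8 fits that left out 1 library.

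The other 7 genes of this group were not called. CCNB1 and CCNB2, the B-type cyclins that partner CDK1, had log2 fold changes of -0.02 and -0.13, and CCNA2, the cyclin of S phase and early mitosis, had 0.06 (limma adjusted p = 0.817, 0.143 and 0.455). PLK1, a kinase of mitotic entry, and AURKB, the kinase of the centromere, had -0.06 and -0.03 (limma adjusted p = 0.526 and 0.802). BUB1 and BUB1B, which delay anaphase until chromosomes are attached, had 0.14 and 0.00403 (limma adjusted p = 0.0706 and 0.963). Without control replicate 3, CCNA2 and BUB1 were called higher (log2 fold change 0.13 and 0.18, limma adjusted p = 0.0387 and 0.0273), and BUB1 was also called without miR-690oe replicate 4 (0.17, limma adjusted p = 0.0328).

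The mitotic machinery held the widest spread, with 4 of 11 genes higher, 2 lower and 5 not called. Its shares of 36.4% higher and 18.2% lower stand beside 26.0% and 17.4% of all genes tested. CENPF, a large protein of the kinetochore, had 64.2, 51.0, 51.6 and 54.2 CPM in miR-690oe replicates 1 to 4, against 35.7, 33.2, 40.0 and 38.4 CPM in control replicates 1 to 4. MKI67, the Ki-67 protein that coats mitotic chromosomes and serves as a marker of dividing cells, had 209, 179, 183 and 190.2 CPM in the miR-690oe libraries, against 134, 122, 146 and 138 CPM in the controls. The lowest miR-690oe library lay above the highest control library for both. Their log2 fold changes were 0.58 ± 0.0728 for CENPF and 0.49 ± 0.0580 for MKI67 (SE, limma adjusted p = 2.38e-05 and 1.30e-05), the highest among the 42 genes. CENPF lies on chromosome 1, 189640606 to 189688086, minus strand, and MKI67 on chromosome 7, 135689784 to 135716361, minus strand.

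TOP2A, the topoisomerase that untangles chromosomes before they part, had 279, 269, 288 and 264 CPM in the miR-690oe libraries, against 229, 229, 254 and 236 CPM in the controls. KIF11, the motor that separates the spindle poles, had 76.3, 66.7, 70.2 and 64.7 CPM in the miR-690oe libraries, against 55.6, 59.6, 63.3 and 59.7 CPM in the controls. Both lay above the controls in all libraries, at 0.21 ± 0.0459 and 0.22 ± 0.0569 (SE, limma adjusted p = 0.00162 and 0.00555). CDC20, which activates the anaphase-promoting complex, had 97.4, 90.6, 98.0 and 99.1 CPM in the miR-690oe libraries, against 100.3, 105, 120.0 and 109.6 CPM in the controls. BIRC5, the survivin subunit of the AURKB complex, had 62.7, 59.8, 60.7 and 63.2 CPM in the miR-690oe libraries, against 62.5, 66.5, 78.8 and 69.4 CPM in the controls. CDC20 lay below the controls without overlap, and BIRC5 overlapped them by less than 1 CPM. The log2 fold changes were -0.17 ± 0.0543 and -0.16 ± 0.0605 (SE, limma adjusted p = 0.0163 and 0.0369). Neither call held when control replicate 3 or miR-690oe replicate 2 was left out, with limma adjusted p of 0.0552 to 0.151, and the BIRC5 call also without control replicate 4 or miR-690oe replicate 3.

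KIF20A and PRC1, which build the midzone of the spindle in cytokinesis, differed by -0.05 and 0.08 (limma adjusted p = 0.515 and 0.249). TPX2, which nucleates spindle microtubules, had 0.04 (limma adjusted p = 0.559). UBE2C, the ubiquitin enzyme of the anaphase-promoting complex, had -0.10 (limma adjusted p = 0.214). STMN1, a protein that destabilises microtubules, had 17.5, 15.8, 17.0 and 17.4 CPM in the miR-690oe libraries, against 17.8, 18.2, 23.2 and 18.3 CPM in the controls. All 4 miR-690oe values of STMN1 lay below the controls, and control replicate 3 stood above the other 3 controls. STMN1 was not called, at -0.19 ± 0.0791 (SE, limma adjusted p = 0.0671), and was called lower without control replicate 1 (limma adjusted p = 0.0489). UBE2C and CDC20, which act with the same complex, both had negative fold changes, and of these only CDC20 passed the threshold.

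Levels of different genes can be set side by side only per length. Per kb of the longest annotated coding transcript, CDK4 was the most abundant of the 42 genes in controls, with 164 CPM per kb in miR-690oe and 194 CPM per kb in control libraries. CCND3 followed with 90.2 CPM per kb in miR-690oe and 101 CPM per kb in control libraries, then CCND1 with 87.6 CPM per kb in miR-690oe and 83.4 CPM per kb in control libraries and RRM1 with 59.2 CPM per kb in miR-690oe and 61.6 CPM per kb in control libraries. The order depends on the transcript assumed. Per kb of the shortest principal transcript, CDK4 still came first and CDK1 came second, with 107 CPM per kb in miR-690oe and 117 CPM per kb in control libraries, ahead of CCND3 with 96.4 CPM per kb in miR-690oe and 108 CPM per kb in control libraries. Lowest in controls, per kb of the longest transcript, were CENPF with 4.96 CPM per kb in miR-690oe and 3.31 CPM per kb in control libraries, CDK6 with 6.87 CPM per kb in miR-690oe and 4.98 CPM per kb in control libraries and RB1 with 6.90 CPM per kb in miR-690oe and 5.47 CPM per kb in control libraries. In miR-690oe GINS2, at 6.06 CPM per kb there and 6.68 CPM per kb in control libraries, stood below CDK6 and RB1. CENPF, CDK6 and RB1 are among the genes called higher, and CDK6 also has a short principal transcript of 2470 nt beside the 11525 nt used here.

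The genes called higher had long transcripts and the genes called lower short ones. The median transcript length was 5284 nt for the 10 higher, 2083 nt for the 10 lower and 3029 nt for the 22 not called. All 6 genes over 5000 nt were called higher, where 73.9% of all genes tested of that length were. Of the 9 genes up to 2000 nt, 4 were lower and 0 higher, where 46.7% of all genes tested of that length were lower and 1.10% higher. Across the 42 genes, Spearman's rho of log2 fold change with length was 0.72, and it was 0.73 across all genes tested with an annotated transcript. With GC content it was -0.64 across the 42 genes and -0.38 across all. These are descriptions across genes within the same 8 libraries, and genes are not independent replicates.

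**Figure D3:**
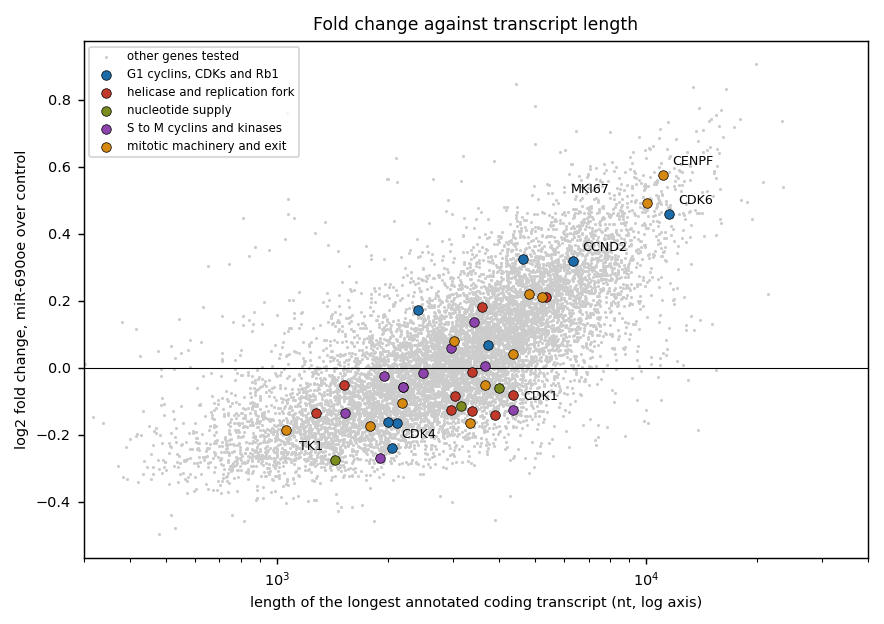
Log2 fold change, miR-690oe over control (y axis), against the length of the longest annotated coding transcript in nt (x axis, log scale), with grey points for the other genes tested and coloured points for the 42 genes by role. The 42 genes lie along the band formed by all genes, with Spearman's rho of 0.72 for the 42 genes and 0.73 for all genes, and the 6 longest are all above 0.

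A spline trend over length and GC content was therefore removed from each library and the whole table fitted again. In that fit 1 of the 42 genes was higher and 7 lower, where 7.38% of all genes tested were higher and 9.09% lower. The gene that stayed higher was CDK2, at 0.19 ± 0.0454 (SE, limma adjusted p = 0.00991). The 7 lower genes were CDK1, BIRC5, MCM6, RRM1, TYMS, CDK4 and MCM5. Of the 20 calls made in the values as deposited, 5 were kept and 15 were lost, and MCM6, RRM1 and TYMS were gained. Spearman's rho with length was then 0.21 across the 42 genes and 0.04 across all.

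Values came closer to 0 for most genes called as deposited, by differing amounts. CENPF had 0.16 with the trend removed, against 0.58 as deposited, and MKI67 had 0.12 against 0.49 (limma adjusted p = 0.0874 and 0.109 with the trend removed). CDK6, TOP2A and KIF11 had 0.05, 0.00234 and 0.03 (limma adjusted p = 0.596, 0.975 and 0.716). TK1, the lowest as deposited, had -0.12 (limma adjusted p = 0.0540). AURKA had -0.18, against -0.27 as deposited, and MCM7 had -0.10, against -0.13 (limma adjusted p = 0.163 and 0.0726 with the trend removed). POLA1 changed sign, to -0.02 (limma adjusted p = 0.845).

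Other genes had lower values in this fit. CDK1 had -0.25 with the trend removed and BIRC5 -0.22, MCM6 -0.21, RRM1 -0.18 and TYMS -0.16 (limma adjusted p = 9.69e-04, 0.0143, 0.00151, 0.00568 and 0.0156). These values rest on the transcript length assumed. The longest transcript of CDK1 is 4375 nt and its shortest principal one 1253 nt, and for BIRC5 these are 3334 and 947 nt. With the shortest principal transcript of each gene, CDK1 and BIRC5 were not called, at -0.04 and -0.0064 (limma adjusted p = 0.528 and 0.954). MCM5 was also lost there, at -0.11 (limma adjusted p = 0.0848), while TK1, MCM7 and GINS2 were lower at -0.15, -0.13 and -0.20 (limma adjusted p = 0.0225, 0.0327 and 0.0395). CDK6 was higher in that fit, at 0.44 (limma adjusted p = 0.000108), against 0.05 with its longest transcript.

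A few calls held in every fit with the trend removed. In all 10 fits with the trend removed, CDK2 was higher and MCM6, RRM1 and TYMS were lower. These were 1 fit per transcript choice and, with the longest transcript only, fits with each library left out in turn. RRM1 and TYMS have the same length under both choices, 3997 and 3163 nt, so for them no other length was tried. CDK2 has 2406 and 2240 nt, and MCM6 has 4355 and 2910 nt. CDK2 ranged from 0.16 to 0.21, MCM6 from -0.23 to -0.12, RRM1 from -0.21 to -0.16 and TYMS from -0.18 to -0.14. RRM1 and TYMS both act in the supply of nucleotides, and MCM6 is a helicase subunit. RRM2, the other subunit of ribonucleotide reductase, was called in 0 of the 10 fits, as were the helicase subunits MCM2, MCM3 and MCM4. None of CDK2, MCM6, RRM1 and TYMS was called in every fit of the values as deposited. With all libraries, MCM6, RRM1 and TYMS there had limma adjusted p of 0.109, 0.299 and 0.0594. CDK4 was lower with and without the trend, at -0.24 and -0.15 (limma adjusted p = 8.71e-04 and 0.0349), and in 4 of the 10 fits with the trend removed. MCM5 was lower in 5 of these 10 fits, and CDK1 and BIRC5 in 9, all but the one with the principal transcript.

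The levels of the mitotic genes also differed within each group. Control replicate 3 was the highest control library for all 20 of the mitotic cyclins, kinases and machinery genes, and for 35 of the 42 genes, while it was the highest for 29.9% of all genes tested. The median of the 20 genes there was 0.15 above the control mean on the log2 scale, against -0.10, -0.05 and 0.0005 in control replicates 1, 2 and 4. Of these 20 genes, CDK1, AURKA, CDC20 and BIRC5 were called lower, by 0.13 to 0.27 on the same scale. MKI67, TOP2A, CENPF and KIF11 were called higher, by 0.21 to 0.58. The 22 genes of G1, fork and nucleotide supply stood closer together, with a median in control replicate 3 of 0.05 over the other 3 controls, against 0.20 for the 20 mitotic genes measured the same way. Among the miR-690oe libraries, replicate 2 was the lowest for 14 of the 20 genes and replicate 1 the highest for 9. Of all 10658 genes tested, replicate 2 was the lowest for 2202 and replicate 1 the highest for 3043.

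Fat cell and preadipocyte markers also differed among these libraries. In control replicate 3, 13 of 16 adipocyte markers were at their lowest and 16 of 20 preadipocyte and fibroblast markers at their highest among the controls. In miR-690oe replicate 2, the reverse held, with 16 of 16 adipocyte markers at their highest and 15 of 20 preadipocyte markers at their lowest of that group. Control replicate 2 had 15 of 16 adipocyte markers at their highest and 12 of 20 preadipocyte markers at their lowest of the controls. In miR-690oe replicate 1, 11 of 16 adipocyte markers were lowest and 15 of 20 preadipocyte markers highest of that group. Control replicate 1 was the lowest control for 13 of the 20 mitotic genes, but held the highest control value of 0 of 16 adipocyte markers. Summed adipocyte markers were 12260 to 15894 CPM in miR-690oe and 13903 to 15560 CPM in control libraries. Summed preadipocyte and fibroblast markers were 15757 to 20708 CPM in miR-690oe and 16324 to 18889 CPM in controls. Both sums overlapped between the groups, and their part in the results for the mitotic genes was not tested.

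**Figure D4:**
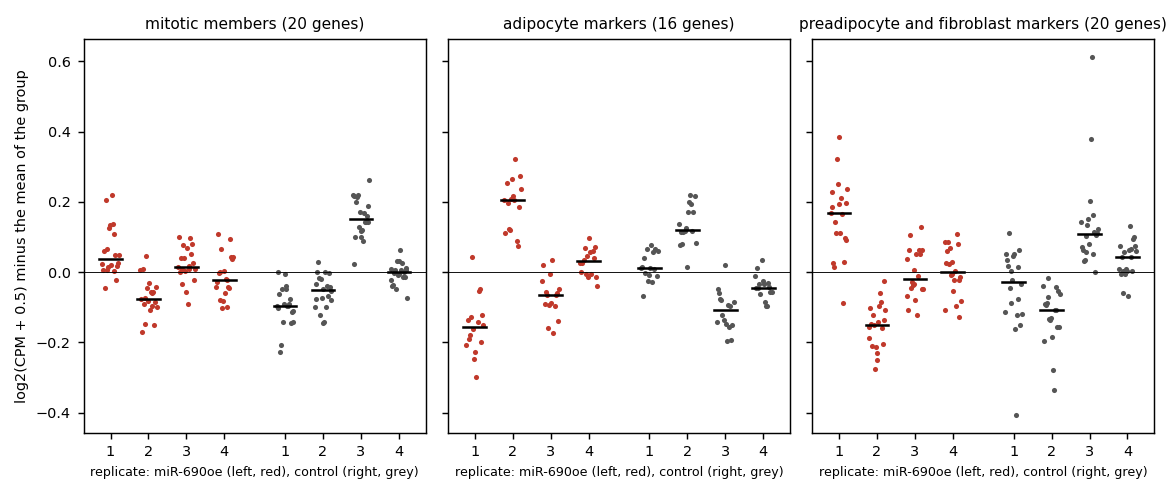
Deviation of each gene from the mean of its own group in log2(CPM + 0.5) (y axis), by replicate, with miR-690oe left in red and control right in grey; each point is a gene and each bar a median. The 20 mitotic genes all lie above 0 in control replicate 3 (median 0.15), where the 16 adipocyte markers have a median of -0.11 and the 20 preadipocyte markers 0.11; miR-690oe replicate 2 shows -0.08, 0.21 and -0.15.

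Without control replicate 3, 12 of the 42 genes were higher (28.6%) and 4 lower (9.52%), against 10 and 10 with all libraries. Of all genes tested, 24.5% were higher and 15.1% lower in that fit. The calls of CCNE1, MCM5, MCM7, CDK1, CDC20 and BIRC5 were lost, which left TK1, CDK4, AURKA and CCND3 lower. Without control replicate 4, 9 were higher (21.4%) and 6 lower (14.3%), where 23.2% of all genes tested were higher and 14.3% lower. MKI67 and CENPF were higher without control replicate 3 both as deposited (0.53 and 0.62) and with the trend removed, at 0.15 and 0.20 (limma adjusted p = 0.0445 and 0.0494). Control replicate 3 was the highest control library for both genes, so leaving it out raises their fold changes. Of the 10 fits with the trend removed, MKI67 was called higher in 1 and CENPF in 2. In each of the 8 fits of the values as deposited that left out 1 library, CCND2, CDK6, RB1, MCM4, POLA1, MKI67, TOP2A, CENPF and KIF11 were higher, and CCND3, CDK4, TK1 and AURKA were lower.

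Promoter sequences were set beside this shared variation, since many genes of late cell cycle carry the same short motifs. The cell cycle genes homology region (CHR, TTTGAA) is bound by complexes that hold such genes silent in resting cells and switch them on before mitosis. The CCAAT box is bound by NF-Y, and E2F factors bind a core that was searched as TTCCCGC and as its variants TTGGCGC, then also TTCGCGC, and finally the form TTGCCGC. Read on the other strand, TTGGCGC can share letters with CCAAT. RefSeq windows from 250 bases before to 50 after the start were held for 32 of the 42 genes and searched on both strands. TTTGAA was found in 13 of 32 genes (40.6%), against 17.9% of all 32851 windows and 13.9% of the 8426 listed genes with a window. Shares of genes count a gene with a match in any of its windows, while the share of all windows counts each window. CCAAT was found in 25 of 32 genes (78.1%), against 37.4% of all windows and 43.8% of listed genes. An E2F core was found in 12 of 32 genes (37.5%), against 9.57% of all windows and 20.3% of listed genes. TTTGAA was held by 4 of 7 higher, 3 of 10 lower and 6 of 15 uncalled genes with a window.

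The stretches from 140 bases before to 20 after the start (RefSeq, GRCm38.p6) are shown for 6 genes that differ in their call, with every match in capitals. CENPF and TOP2A were higher, CDC20 and CDK1 lower, and CCNB2 and MCM6 not called in the values as deposited.
CENPF, chr1:189688067-189688226, minus strand: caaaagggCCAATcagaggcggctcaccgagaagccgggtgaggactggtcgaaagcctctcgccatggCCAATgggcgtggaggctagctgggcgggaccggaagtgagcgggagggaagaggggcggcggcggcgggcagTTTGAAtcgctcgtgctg
TOP2A, chr11:99024170-99024329, minus strand: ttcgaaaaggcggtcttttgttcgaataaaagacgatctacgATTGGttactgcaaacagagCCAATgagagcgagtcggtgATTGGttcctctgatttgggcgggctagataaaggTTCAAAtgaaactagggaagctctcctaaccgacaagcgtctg
CDC20, chr4:118437324-118437483, minus strand: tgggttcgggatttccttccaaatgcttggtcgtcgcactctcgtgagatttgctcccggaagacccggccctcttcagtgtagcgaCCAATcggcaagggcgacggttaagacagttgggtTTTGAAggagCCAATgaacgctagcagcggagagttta
CDK1, chr10:69352893-69353052, minus strand: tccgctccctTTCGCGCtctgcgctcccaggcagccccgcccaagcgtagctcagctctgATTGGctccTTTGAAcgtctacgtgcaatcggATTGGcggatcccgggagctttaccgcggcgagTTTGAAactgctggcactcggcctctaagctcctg
CCNB2, chr9:70421535-70421694, minus strand: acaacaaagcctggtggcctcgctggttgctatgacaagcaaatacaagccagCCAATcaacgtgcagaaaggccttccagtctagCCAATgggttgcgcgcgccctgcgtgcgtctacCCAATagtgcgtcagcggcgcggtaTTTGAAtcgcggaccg
MCM6, chr1:128359686-128359845, minus strand: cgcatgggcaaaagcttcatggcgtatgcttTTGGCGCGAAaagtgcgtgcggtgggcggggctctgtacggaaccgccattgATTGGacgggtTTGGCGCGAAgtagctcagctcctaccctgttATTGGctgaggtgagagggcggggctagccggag

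In all 6 stretches the capitals mark CCAAT or its reverse complement ATTGG. In CENPF, CDC20, CDK1 and CCNB2 they also mark TTTGAA, and in TOP2A its reverse complement TTCAAA. CDK1 also holds TTCGCGC. MCM6 holds TTGGCGC with an overlapping match to TTCGCGC on the other strand, at both of its E2F cores. CENPF, CDC20 and CCNB2 thus show the same pair of motifs while their log2 fold changes were 0.58, -0.17 and -0.13. A match describes these letters in this window and says nothing of binding.

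Further genes of the same pathways were counted to place the 42 genes. Of 214 tested genes in 11 further lists, 56 (26.2%) were higher and 37 (17.3%) lower, with a median log2 fold change of 0.02, which is near the 26.0% and 17.4% of all genes. With the trend removed 11 of these 214 were higher and 22 lower, where 7.38% of all genes tested were higher and 9.09% lower. All values of the further lists with the trend removed use the longest transcript. They were not set beside values with the shortest principal transcript. Cohesin, the ring that holds sister chromatids together, had 12 of 15 genes higher and 0 lower, with a median of 0.23. NIPBL, which loads the ring, had 0.55 ± 0.0451, PDS5B 0.37 ± 0.0453, WAPL, which releases it, 0.33 ± 0.0533 and the ring subunit SMC3 0.31 ± 0.0452 (SE, limma adjusted p = 1.66e-06, 1.89e-05, 1.78e-04 and 7.31e-05). The median transcript of the list was 5369 nt, and with the trend removed only NIPBL was called, at 0.17 (limma adjusted p = 0.00546).

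Condensin, which compacts chromosomes, had 4 of 8 genes higher and 1 lower, with NCAPG2 at 0.35, SMC2 at 0.34, SMC4 at 0.30 and NCAPD3 at 0.25 (limma adjusted p = 2.35e-04, 2.81e-04, 9.04e-04 and 9.03e-04). The lower gene was NCAPH2, at -0.21 (limma adjusted p = 0.00121). With the trend removed, NCAPG2 was higher at 0.18 and NCAPH2 lower at -0.20 (limma adjusted p = 0.0182 and 0.00320). Of 28 genes of mitotic motors, spindle and cytokinesis 13 were higher and 1 lower, among them CLASP2 at 0.43, KIF20B at 0.36, CKAP5 at 0.27 and the dynein heavy chain DYNC1H1 at 0.39 (limma adjusted p = 4.16e-05, 2.60e-04, 3.26e-04 and 3.66e-04). With the trend removed, CLASP2 was called, at 0.20 (limma adjusted p = 0.0128), and CKAP5 had -0.02. Control replicate 3 was the highest control for 23 of these 28 genes.

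Of 34 genes of centromere, kinetochore and spindle checkpoint 3 were higher and 7 lower. KNL1, the scaffold of the outer kinetochore, and CENPE, a kinetochore motor, had 0.59 and 0.37, while PMF1 and BUB3, smaller proteins of the kinetochore and the checkpoint, had -0.28 and -0.16 (limma adjusted p = 2.01e-05, 5.14e-04, 0.00129 and 0.00879). KNL1 and BUB3 kept their calls with the trend removed, at 0.23 and -0.24 (limma adjusted p = 0.00926 and 8.88e-04). The anaphase-promoting complex, the partner of CDC20 and UBE2C, had 8 of 17 genes lower and 2 higher as deposited. With the trend removed, 7 were lower and 0 higher. Of all genes tested, 17.4% were lower and 26.0% higher as deposited, and 9.09% and 7.38% with the trend removed. ANAPC2, ANAPC7 and ANAPC11 had -0.17, -0.16 and -0.21, and -0.15, -0.20 and -0.21 with the trend removed (limma adjusted p = 0.0101, 0.00221 and 0.00741 in that fit). CDC27, its longest named subunit at 5425 nt, had 0.28 as deposited and 0.04 with the trend removed (limma adjusted p = 5.18e-04 and 0.558).

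**Figure D5:**
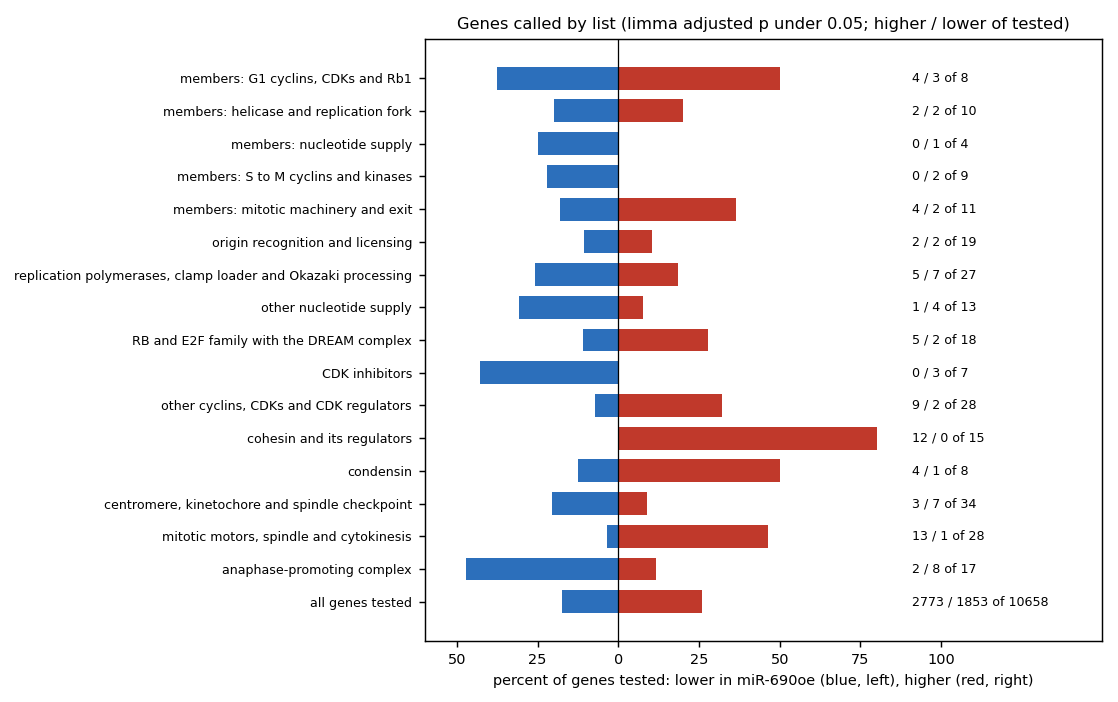
Percent of genes tested (x axis) called lower in miR-690oe (blue, to the left) and higher (red, to the right) by limma, for the 5 roles of the 42 genes, 11 further lists and all genes tested; the counts of higher and lower genes stand at the right. Cohesin has 12 of 15 genes higher and 0 lower and the anaphase-promoting complex 2 of 17 higher and 8 lower, beside 26.0% and 17.4% of all genes.

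In the list of CDK inhibitors, 3 of 7 genes were lower and 0 higher, where 17.4% of all genes tested were lower and 26.0% higher. CDKN1A, the p21 protein, had 223, 222, 224 and 225 CPM in the miR-690oe libraries, against 245, 253, 243 and 237 CPM in the controls. CDKN2A had 248, 227, 241 and 272 CPM in the miR-690oe libraries, against 289.8, 288, 307 and 302 CPM in the controls. Both lay below the controls without overlap, at -0.13 ± 0.0393 and -0.26 ± 0.0512 (SE, limma adjusted p = 0.0141 and 7.16e-04), and CDKN3 was lower at -0.28 (limma adjusted p = 0.0131). CDKN1A was lost without control replicate 2 and CDKN3 without control replicate 3 (limma adjusted p = 0.0598 and 0.0528). None of the 7 was called with the trend removed. Of 18 genes of the RB and E2F family with the DREAM complex 5 were higher and 2 lower. The relatives of RB1 and E2F named by the rule were RBL1 at 0.22, E2F3 at 0.25 and E2F8 at 0.35, and the chromatin subunit RBBP4 had -0.15 (limma adjusted p = 0.0106, 0.00827, 0.00805 and 0.0110). E2F8 and RBBP4 kept their calls with the trend removed, at 0.31 and -0.30 (limma adjusted p = 0.0343 and 3.22e-04).

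The lists of replication were mixed as well. Origin recognition and licensing had 2 of 19 genes higher and 2 lower, with the kinase gene CDC7 at 0.24, MCMBP at 0.14, and the partners of GINS2, GINS1 and GINS4, at -0.19 and -0.21 (limma adjusted p = 0.00550, 0.0343, 0.0274 and 0.00252). The MCMBP call was lost without any 1 of control replicates 1, 2 and 4 and miR-690oe replicates 2, 3 and 4 (limma adjusted p of 0.0596 to 0.0946), and the GINS1 call without any 1 of control replicates 3 and 4 and miR-690oe replicate 1 (limma adjusted p of 0.0559 to 0.0801). CDC7 was also higher with the trend removed, at 0.19 (limma adjusted p = 0.0299). Polymerases, clamp loader and Okazaki processing had 5 of 27 higher and 7 lower. RFC2, which sits with RFC4 in the clamp loader, had -0.27 and POLD2 -0.21, while the topoisomerases TOP1 and TOP2B had 0.28 and 0.30 (limma adjusted p = 4.30e-04, 0.00254, 1.36e-04 and 6.32e-05). With the trend removed, RFC2 had -0.41 and TOP1 0.16 (limma adjusted p = 1.55e-04 and 0.0106), and TOP2B changed sign to -0.11 (limma adjusted p = 0.131). Beside TK1, 4 of 13 further genes of nucleotide supply were lower and 1 higher, with IMPDH2 at -0.23, DUT at -0.22, DTYMK at -0.19 and TK2 at -0.17 (limma adjusted p = 8.59e-04, 0.00556, 0.00603 and 0.0115). IMPDH2 was the one of these 4 that kept its call with the trend removed, at -0.12 (limma adjusted p = 0.0433).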

How the data were processed

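Gene expression was measured in 8 libraries, 4 miR-690oe and 4 control. Trimmomatic 0.38, edgeR 3.20.9 and the build mm10 are listed in the submitters' processing notes, without saying what each was used for; no source used here gives the aligner, the counter or the strand setting. The values deposited by the authors are named RPKM, but each library's column summed to 1000000, so they were taken as CPM over the listed genes. All values were whole multiples of 1 read within 0.1 read, which gave the reads per library; no count model was fitted. The authors' deposited table, per its headers, also gives for each gene a log2 fold change, a likelihood-ratio score, a p-value and its false discovery rate, of which the call at a false discovery rate under 0.05 is used where named.

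Tests covered the 10658 of 10663 genes that reached 0.5 CPM in 4 or more libraries. limma 3.58.1 under R 4.3.3 was run on log2(CPM + 0.5) (lmFit, eBayes with a trend, two-sided, Benjamini-Hochberg over all genes, threshold 0.05) and group as the only term. Fold changes on this scale understate changes of low genes. The script was tested on simulated data. Each gene's length and GC content were those of its longest basic coding transcript in GENCODE M21, matched for 99.5% of entries; the trend was a natural spline per library. Overlapping genes cannot be told apart where counting ignored strand. Replicate numbers are shared by the groups, but same-numbered libraries did not deviate together (correlations of -0.30, 0.30, -0.10 and -0.32), so they were not paired. Replicates differed beyond counting noise in all pairs (chi-square per degree of freedom 3.96 to 21.9). The 42 genes, the further lists and the tests were chosen with earlier results of these data known. In each further list, up to 4 called genes with the lowest adjusted p are named. Alternatives covered the pseudocount, filter, scaling, variance model, array weights, replicate block, threshold, length trend and each library left out. Columns of other samples numbered 0.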

Additional observations from a re-analysis of the deposited data

Results flagged for a closer look

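In 8 of 170 sets of 4 libraries tested, 1 library stood apart from the other 3 by Dixon's ratio, its gap to the nearest library over the whole range, past its 95% critical value; chance flags about 1 in 20. Among the 42 genes there were 4 in 84 sets. MCM2 was lowest in control replicate 4, at 103 CPM against 108 to 109 CPM in the other controls (ratio 0.834). MCM4 was highest in miR-690oe replicate 3, at 113 against 107 to 108 CPM in the rest of that group (0.864). TK1 was highest in miR-690oe replicate 4, at 77.7 against 69.0 to 70.3 CPM (0.85). STMN1 was highest in control replicate 3, at 23.2 against 17.8 to 18.3 CPM (0.909). Of the further genes, MCMBP was highest in control replicate 3 (0.866), CDK13 in miR-690oe replicate 2 (0.925) and ANAPC7 in miR-690oe replicate 2 (0.877), and NCAPD3 was lowest in miR-690oe replicate 4 (0.972).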

How the results depend on the processing

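Pseudocounts of 0.1 and 1 CPM, no filter, a filter at a mean of 2 CPM and array weights left the count at 10 higher and 10 lower among the 42 genes, as did a fit with the replicate block. The further lists kept their counts within 1.5 times in these fits. Of the 42 genes, 1 was higher (2.38%) and 7 lower (16.7%) once the trend over length and GC was taken out. Of the 214 genes tested of the further lists, 11 were then higher and 22 lower, beside 7.38% and 9.09% of all genes tested. Lower genes among the 42 were 16 (38.1%) with median-of-ratios scaling, 17 (40.5%) with quantile normalization and 3 (7.14%) at a threshold of 0.01, beside 20.9%, 23.9% and 9.94% of all genes tested. With no variance trend 10 were higher (23.8%) and 7 lower (16.7%), near the 25.1% and 16.6% of all genes tested. CCNE1, CDK1 and BIRC5 were lost there (limma adjusted p of 0.0549 to 0.0638). At the threshold of 0.01 the further lists had 37 higher and 17 lower of 214 genes, beside 18.7% and 9.94% of all genes tested. Leaving out each library gave 4 to 11 lower among the 42 genes as deposited. The 4 came without control replicate 3 (9.52%, beside 15.1% of all genes tested). The 11 came without control replicate 1 (26.2%, beside 14.9%). With the trend removed, leaving out each library gave 1 to 3 higher, the 3 without control replicate 3 (7.14%, beside 5.92%). For the shortest principal transcript 2 were higher (4.76%, beside 9.21%). The cause of these shifts was not tested.

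With the trend removed, signs changed for PCNA (0.0217), POLA1 (-0.0168), AURKB (0.0703), PLK1 (0.018), BUB1B (-0.0369), TPX2 (-0.0836), TOP2B (-0.1054), CDK13 (-0.052) and CKAP5 (-0.0155). BUB1B also changed sign with median-of-ratios scaling (-0.0188), quantile normalization (-0.0276) and array weights (-0.0106). Leaving out a library changed the sign of genes that were not called: MCM2 (-0.0303 to 0.0029), CCNB1 (-0.0488 to 0.0099), AURKB (-0.094 to 0.0462), PLK1 (-0.0991 to 0.0154), BUB1B (-0.0376 to 0.0616) and KIF20A (-0.0874 to 0.0054). The replicate block ended 1 call among the named genes, GINS1 (limma adjusted p = 0.0515). Count models on the reads were not run. With 4 libraries a group and unknown strand and transcript use, differences of a few percent are not resolved for single genes.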

Other observations

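Among 28 other cyclins, CDKs and their regulators, 9 were higher and 2 lower. The 4 with the lowest adjusted p were CCNT1, CCNT2, CDK12 and CDK13. CCNT1 and CCNT2, the cyclins of the elongation factor P-TEFb, had log2 fold changes of 0.54 ± 0.0980 and 0.37 ± 0.0528 (SE, limma adjusted p = 4.47e-04 and 6.63e-05). CDK12 and CDK13, kinases of the polymerase tail, had 0.46 ± 0.0541 and 0.39 ± 0.0454 (SE, limma adjusted p = 1.32e-05 and 1.28e-05). CDK12 had 74.0, 73.5, 69.3 and 62.7 CPM in the miR-690oe libraries, against 50.8, 50.6, 49.7 and 51.3 CPM in the controls, without overlap, and it was called with the length and GC trend removed as well, at 0.24 (limma adjusted p = 0.00176). CCNT1, CCNT2 and CDK13 were not called in that fit, at 0.23, 0.08 and -0.05 (limma adjusted p = 0.0690, 0.238 and 0.472). Their partners were not called as deposited: CDK9, the kinase of P-TEFb, had -0.02 and CCNK, the cyclin of CDK12 and CDK13, had 0.11 (limma adjusted p = 0.699 and 0.0906). CDK7, CCNH, MNAT1 and CCNC, which also act with the polymerase, were not called either, at -0.06, 0.00131, -0.10 and 0.11 (limma adjusted p = 0.294, 0.988, 0.168 and 0.237). With the trend removed, CCNK was higher at 0.14 and MNAT1 lower at -0.23 (limma adjusted p = 0.0358 and 0.00662). These 6 genes were chosen after their values were seen.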
